A study of Mus musculus with 6 samples.

Results

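The mRNAs of the 7 cyclin-dependent kinase (CDK) inhibitor genes of the mouse, *Cdkn2a*, *Cdkn2b*, *Cdkn2c*, *Cdkn2d*, *Cdkn1a*, *Cdkn1b* and *Cdkn1c*, were examined in CD8+ T effector cells (Teff) with and without *Scd-1*, the gene for stearoyl-CoA desaturase 1, which makes monounsaturated fatty acids. The 7 genes were taken by their gene names from 34745 genes, and each had a row in all 6 deposited tables. RNA had been sequenced from Teff in 3 WT and 3 *Scd-1*-/- libraries, from poly(A) RNA per the labels, while the study's methods name a stranded total RNA kit. CD8+ T cells had been isolated from spleen with a magnetic kit, stimulated for 3 days with anti-CD3 (5 μg/mL), anti-CD28 (0.5 μg/mL) and IL-2 (100 U/mL), kept for another 3 days in IL-2, and harvested on day 6. The *Scd-1*-/- mice were B6.129-Scd1tm1Ntam/J, which lack the gene in every cell and not only in T cells, and the WT mice were C57BL/6J animals obtained from another source. The study's methods describe the mice as young adult males, and neither the labels nor the methods call the 2 genotypes littermates.

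CDK inhibitors are small proteins that hold back the kinases of the cell cycle. The INK4 family, p16Ink4a from *Cdkn2a*, p15Ink4b from *Cdkn2b*, p18Ink4c from *Cdkn2c* and p19Ink4d from *Cdkn2d*, binds CDK4 and CDK6 and keeps D-type cyclins from activating them, so that the RB protein stays unphosphorylated and bound to E2F. The CIP/KIP family, p21 from *Cdkn1a*, p27 from *Cdkn1b* and p57 from *Cdkn1c*, binds complexes of cyclins with CDK2 as well as those with CDK4 and CDK6. In T cells p27 is known to be high at rest and to fall after stimulation, p18Ink4c is known to restrain proliferation after T cell receptor signals, p21 is a direct target of p53, and *Cdkn2a* and *Cdkn2b* are known for low activity in young tissue and for induction in senescent cells.

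The libraries held between 14034479 and 15866216 counts, so that a count of 3, the upper limit for a gene listed at 0, was worth 0.189 to 0.214 CPM (counts scaled to the same library total). *Scd1* itself, the targeted gene, had counts of 4272, 3074 and 3761 in WT replicates 1, 2 and 3 and of 30, 36 and 20 in *Scd-1*-/- replicates 1, 2 and 3, as the labels require. All 9 CD8 T cell markers listed, *Cd3d*, *Cd3e*, *Cd3g*, *Cd8a*, *Cd8b1*, *Trac*, *Trbc2*, *Lck* and *Zap70*, passed the expression minimum and none was called in either fit. *Cd8a* was nevertheless lower in every *Scd-1*-/- library (43.2, 47.6 and 47.1 FPKM in WT and 36.6, 27.9 and 33.7 FPKM in *Scd-1*-/- Teff, log2 fold change -0.46, edgeR adjusted p 0.297, or 0.0630 with the block), and *Cd8b1* had a log2 fold change of -0.30 (adjusted p 0.647, or 0.124 with the block). The largest principal component, with 43.0% of the variance, set replicate 1 of both genotypes apart from replicates 2 and 3, and the next, with 36.3%, separated the genotypes. Same-numbered libraries deviated together, with r across genes of 0.595, 0.306 and 0.470. Differently numbered libraries of replicates 2 and 3 were also positively correlated (WT replicate 3 with *Scd-1*-/- replicate 2 at 0.380 and WT replicate 2 with *Scd-1*-/- replicate 3 at 0.180), and those that cross replicate 1 lay between -0.560 and -0.316. All same-numbered pairs were over 0.1, so values with the replicate number as a block are given where they change a call. What a replicate number stands for is not stated, nor whether replicates came from separate mice, and p-values therefore measure only the spread between these libraries.

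The most abundant CDK inhibitor mRNAs in WT Teff were *Cdkn2d*, at 84.6 ± 24.5 FPKM (SD, n = 3), and *Cdkn1a*, at 54.0 ± 17.6 FPKM. FPKM, counts scaled by gene length and by the library total, is a scale on which levels of different genes can be set side by side. *Cdkn2c* followed at 16.1 ± 0.508 FPKM, *Cdkn1b* at 5.06 ± 1.12, *Cdkn2a* at 4.90 ± 3.54, *Cdkn2b* at 1.62 ± 0.724 and *Cdkn1c* at 0.0958 ± 0.0937. Neighbours in this order overlapped for *Cdkn2d* with *Cdkn1a* and for *Cdkn1b* with *Cdkn2a*, and all other neighbours were apart in every library. In *Scd-1*-/- Teff the order of mean FPKM was *Cdkn1a* at 86.6 ± 25.9, *Cdkn2d* at 82.7 ± 17.3, *Cdkn2a* at 36.4 ± 10.7, *Cdkn2c* at 19.5 ± 2.65, *Cdkn2b* at 9.54 ± 3.50, *Cdkn1b* at 4.59 ± 0.945 and *Cdkn1c* at 0.111 ± 0.0421. *Cdkn2a* thus stood in place 5 in WT Teff and in place 3 in *Scd-1*-/- Teff, above *Cdkn2c*. Only *Cdkn1a* and *Cdkn2d* overlapped as neighbours in *Scd-1*-/- Teff. With gene lengths taken from GENCODE instead of those in the deposited FPKM, *Cdkn2b* and *Cdkn1b* overlapped there too and the order was the same. The plot of the 7 genes by library shows these values.

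**Figure D1:**
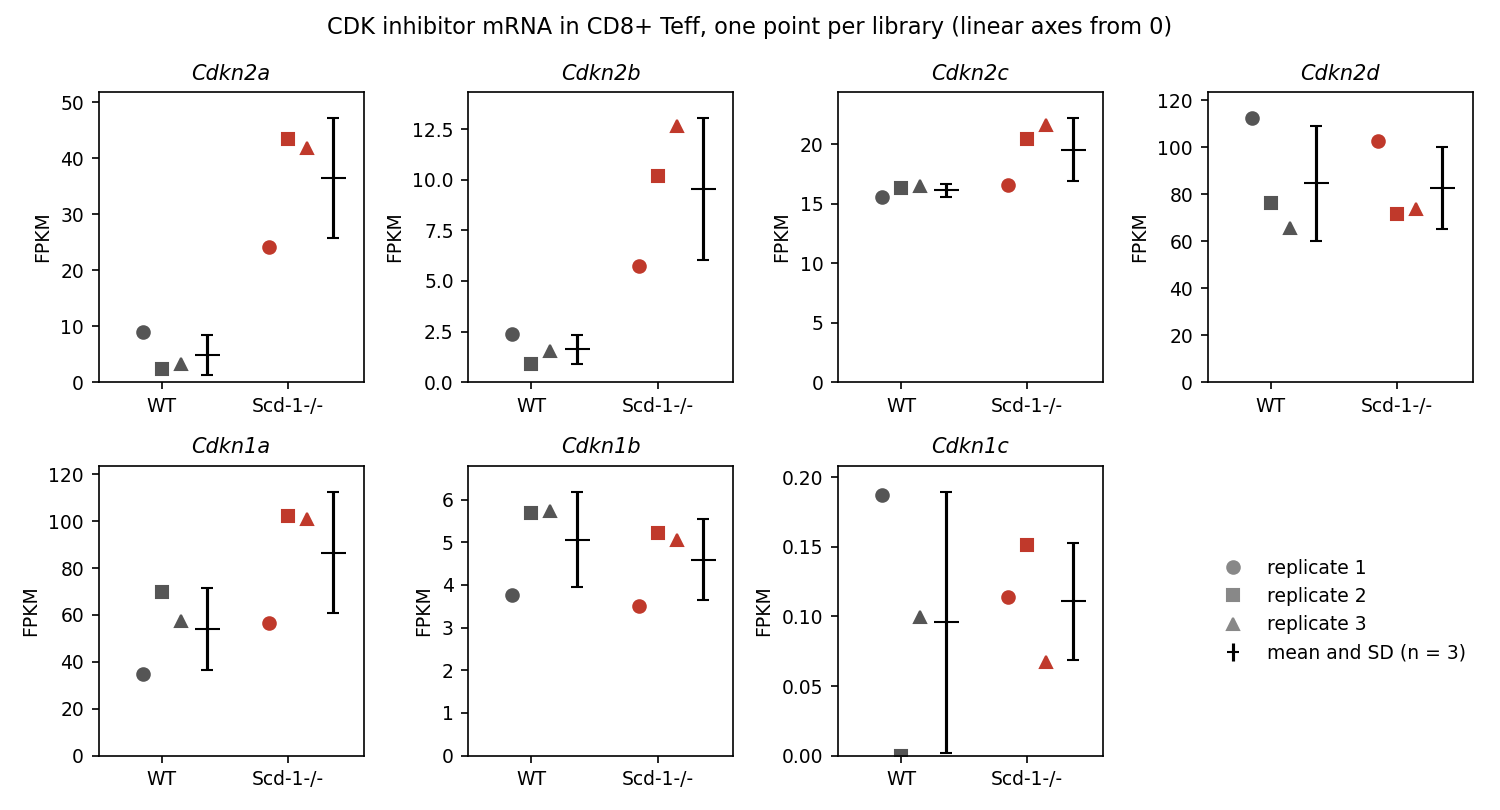
FPKM (vertical axes, linear from 0) of the 7 CDK inhibitor genes in the 3 WT and 3 Scd-1-/- Teff libraries, with 1 point per library, its shape giving the replicate number, and the mean with its SD (n = 3) to the right of the points. The Scd-1-/- points lie above all WT points for Cdkn2a, Cdkn2b and Cdkn2c, while those of the other 4 genes overlap with WT.

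Of the 7 genes, 6 passed the minimum of a mean FPKM of at least 1 and were tested among 9627 genes with edgeR's quasi-likelihood test, and *Cdkn1c* did not pass. *Cdkn2a* and *Cdkn2b* passed the study's thresholds (1 or more on the log2 fold scale in either direction, with an unadjusted p under 0.001), both higher in *Scd-1*-/- Teff, that is 2 of 6, where 0.499% of all genes tested did so in that direction and 0.738% in either. The study had already reported higher *Cdkn2a* in *Scd-1*-/- Teff from this RNA-seq, among genes tied to proliferation. None of the 6 had a Benjamini-Hochberg adjusted p under 0.05 without the replicate block, where 0.114% of all genes did, although 3 had an unadjusted p under 0.05 (10.1% of all genes). DESeq2 called 2 at an adjusted p under 0.05, where it called 2.77% of all genes, and edgeR with no FPKM minimum called 2, where it called 0.489%. With the replicate block the same 2 passed the study's thresholds, against 1.19% of all genes in that direction, and 3 of the 6, *Cdkn2a*, *Cdkn2b* and *Cdkn1a*, had an adjusted p under 0.05, against 4.7% of all genes. With the block DESeq2 and limma on log2(FPKM + 1) also called 3 at that limit, against 7.62% and 4.58% of all genes. The FPKM of the 3 *Scd-1*-/- and the 3 WT libraries did not overlap for 3 of the 6 (*Cdkn2a*, *Cdkn2b* and *Cdkn2c*), all higher in *Scd-1*-/- Teff, against 7.67% of all genes in that direction. The median log2 fold change of the 6 was 0.504, beside -0.001 for all genes tested. The 6 differed widely among themselves, from a log2 fold change of -0.11 to 2.90, as the plot of fold changes shows.

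**Figure D2:**
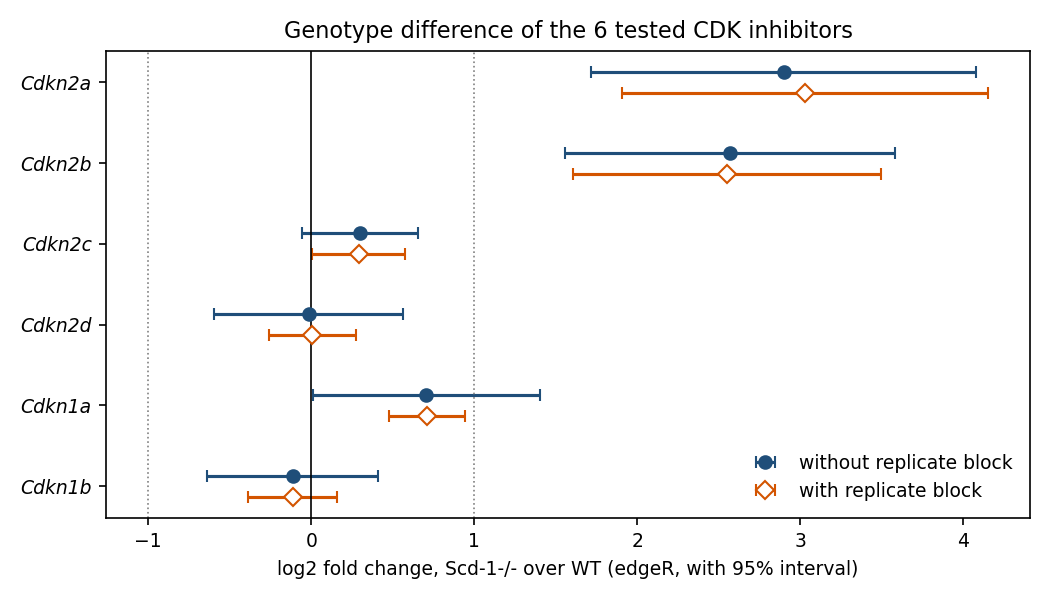
Log2 fold change of Scd-1-/- over WT Teff (horizontal axis) for the 6 tested CDK inhibitor genes from edgeR, with 95% intervals, without the replicate block (filled circles) and with it (open diamonds), and with dotted lines at the study's fold threshold. The intervals of Cdkn2a and Cdkn2b lie wholly above 1 in both fits, and that of Cdkn1a is narrower with the block.

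*Cdkn2a* and *Cdkn2b*, the pair with the largest differences, lie beside each other on chromosome 4 (GRCm38), both on the minus strand. *Cdkn2b* spans chr4:89306299-89311039, *Cdkn2a* spans chr4:89274471-89294653, and 11645 bases separate them. *Cdkn2a* has 2 transcripts with different first exons and start sites 12461 bases apart, drawn in the map of the locus. The Ink4a transcript (852 bases) encodes p16Ink4a, and the Arf transcript (895 bases) encodes p19Arf, which is no CDK inhibitor but stabilizes p53 by binding MDM2. They share 575 bases, 67.5% of the Ink4a and 64.3% of the Arf transcript. The deposited counts are per gene, so a *Cdkn2a* count may come from either transcript, and its level of p16Ink4a mRNA cannot be told apart from that of Arf. The transcripts of *Cdkn2a* and *Cdkn2b* resemble each other through the ankyrin repeats that both proteins carry, but the longest run of identical bases between them was 23.

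**Figure D3:**
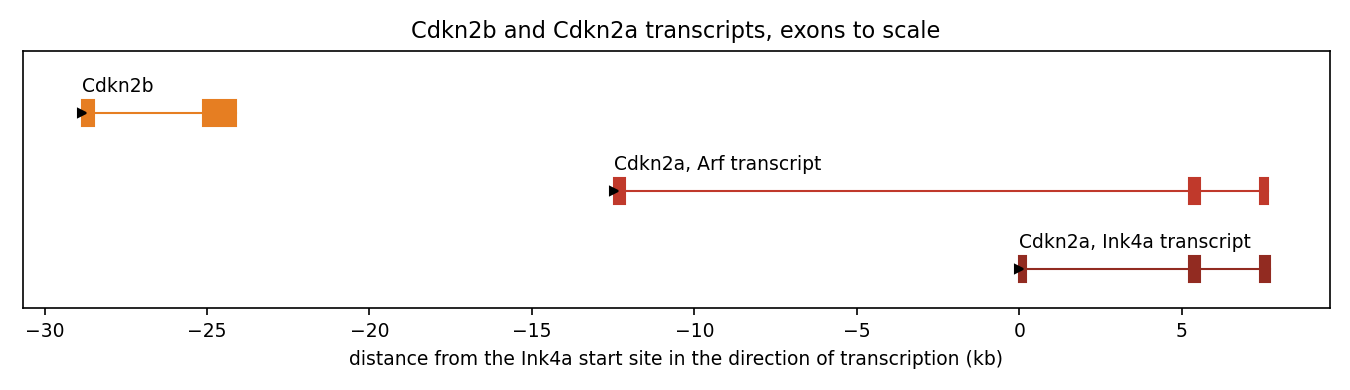
Exons (boxes, to scale) and introns (lines) of the Cdkn2b transcript and of the Arf and Ink4a transcripts of Cdkn2a, placed by their distance in kb from the Ink4a start site in the direction of transcription (left to right), with arrowheads at the start sites. Cdkn2b lies upstream, and the Arf and Ink4a transcripts differ in their first exons and share downstream exons.

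Since *Cdkn2a* and *Cdkn2b* were higher together, the sequences upstream of their 3 start sites are shown, from RefSeq (GRCm38.p6), 5' to 3' on the minus strand and cut where the annotated transcript begins. Capitals mark the matches within these bases to any of 9 motifs searched on both strands. Matches that cross or lie beyond the cut are counted below but not printed.
Arf promoter, chr4:89294654-89294869: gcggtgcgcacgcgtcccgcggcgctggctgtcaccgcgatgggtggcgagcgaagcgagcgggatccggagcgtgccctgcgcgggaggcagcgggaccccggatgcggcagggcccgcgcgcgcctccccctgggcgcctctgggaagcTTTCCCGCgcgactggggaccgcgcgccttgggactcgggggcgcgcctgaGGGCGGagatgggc
Ink4a promoter, chr4:89282193-89282442: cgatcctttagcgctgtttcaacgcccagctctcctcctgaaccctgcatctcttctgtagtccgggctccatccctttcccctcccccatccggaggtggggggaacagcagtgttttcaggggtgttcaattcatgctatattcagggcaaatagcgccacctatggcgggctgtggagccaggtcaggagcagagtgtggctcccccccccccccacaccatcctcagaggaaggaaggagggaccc
Cdkn2b promoter, chr4:89311040-89311282: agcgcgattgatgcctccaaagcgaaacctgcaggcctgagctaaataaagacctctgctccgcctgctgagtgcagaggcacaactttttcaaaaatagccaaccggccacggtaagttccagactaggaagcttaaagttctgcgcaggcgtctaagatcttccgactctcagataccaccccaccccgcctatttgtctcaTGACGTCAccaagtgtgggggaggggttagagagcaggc
The motifs were the Sp1 GC box (GGGCGG), E2F (TTTCCCGC or TTTGGCGC), CCAAT, the E-box (CACGTG), the cyclic AMP response element or CRE (TGACGTCA), AP-1 (TGANTCA), STAT (TTCNNNGAA), FOXO (GTAAACA) and the TATA box (TATAAA). In windows of 300 bases, from 250 before to 50 after each RefSeq start, the Arf window held 1 E2F match and 3 GC boxes, the Ink4a window 1 GC box and 1 CCAAT, and the Cdkn2b window 1 CRE and 1 GC box. Of 32817 mouse promoter windows, 1.56% held an E2F match, 1.79% a CRE, 35.6% a GC box and 37.4% a CCAAT. No motif other than the GC box was matched in both the Arf and the Cdkn2b window, and a match is a description of the letters only. The 3 windows also differed in CpG dinucleotides, with 45 in the Arf window (98.1% of promoters had fewer), 12 in the Ink4a window (60.4%) and 18 in the Cdkn2b window (70.3%).

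*Cdkn2a* had counts of 191, 48 and 66 in WT replicates 1, 2 and 3, or 8.96, 2.43 and 3.30 FPKM. In *Scd-1*-/- Teff the counts were 527, 861 and 932, or 24.1, 43.4 and 41.8 FPKM. Every *Scd-1*-/- library was above every WT library, and the closest pair was replicate 1 of the 2 genotypes. The log2 fold change was 2.90 ± 0.51 (SE), a 7.47-fold higher level, with a 95% interval of the log2 value from 1.72 to 4.08 and an unadjusted edgeR p of 0.000529. Its adjusted p was 0.0911 without the replicate block and 0.0185 with it (log2 fold change 3.03). Among the 9627 genes tested, *Cdkn2a* held place 19 from the highest log2 fold change.

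*Cdkn2b* was lower in level, with WT counts of 50, 18 and 31, or 2.37, 0.921 and 1.56 FPKM. In *Scd-1*-/- Teff the counts were 125, 200 and 280, or 5.76, 10.2 and 12.7 FPKM. The groups did not overlap, and again the highest WT library and the lowest *Scd-1*-/- library were those of replicate 1. The log2 fold change was 2.57 ± 0.44 (SE), or 5.94-fold, with a 95% interval from 1.56 to 3.58 and an unadjusted edgeR p of 0.000426. The adjusted p was 0.0863 without and 0.0185 with the replicate block (log2 fold change 2.55), and the gene held place 24 from the highest log2 fold change. In each library *Cdkn2a* had between 2.13 and 4.31 counts for each *Cdkn2b* count, 2.13 to 3.82 in WT and 3.33 to 4.31 in *Scd-1*-/- Teff, ranges that overlap.

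The size of both differences depended on the replicate number, as the plot of same-numbered libraries shows. For *Cdkn2a* the CPM ratio of *Scd-1*-/- over WT was 2.69 in replicate 1, 17.8 in replicate 2 and 12.7 in replicate 3. For *Cdkn2b* it was 2.44, 11.1 and 8.10. The smaller ratio in replicate 1 came from both genotypes, since *Cdkn2a* in WT replicate 1 was 3.12 times the mean of WT replicates 2 and 3, and in *Scd-1*-/- replicate 1 was 0.565 of the mean of the other 2 libraries. The same 2 ratios for *Cdkn2b* were 1.90 and 0.505. In replicates 2 and 3 alone the log2 fold changes were 3.93 for *Cdkn2a* and 3.23 for *Cdkn2b*, with adjusted p of 1.01e-05 and 0.000280 in edgeR, where 12.6% of all genes had an adjusted p under 0.05. Left out 1 at a time, WT replicate 2, WT replicate 3, *Scd-1*-/- replicate 2 and *Scd-1*-/- replicate 3 each ended the call of both genes at the study's thresholds without the block, with log2 fold changes of 2.58, 2.67, 2.76 and 2.79 for *Cdkn2a* (p of 0.00208, 0.00249, 0.00160 and 0.00217) and of 2.29, 2.53, 2.52 and 2.30 for *Cdkn2b* (p of 0.00190, 0.00239, 0.00143 and 0.00186). Over all 20 alternatives both genes were higher in *Scd-1*-/- Teff, with adjusted p from 3.37e-07 to 0.435 for *Cdkn2a* and from 2.17e-07 to 0.435 for *Cdkn2b*.

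**Figure D4:**
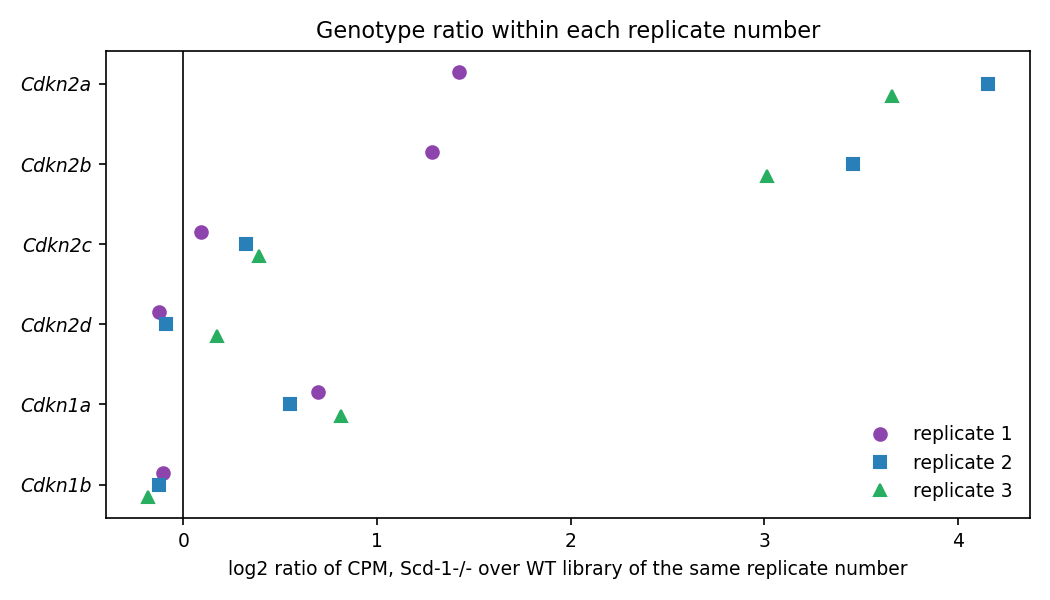
Log2 ratio of CPM (horizontal axis) of the Scd-1-/- over the WT Teff library with the same replicate number, for the 6 tested CDK inhibitor genes, with 1 point for each of the 3 replicate numbers. Cdkn2a and Cdkn2b are spread from 1.28 to 4.15 with replicate 1 lowest, while the 3 points of Cdkn1a lie between 0.55 and 0.82.

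Several markers of gamma delta T cells and NK cells were higher in *Scd-1*-/- Teff, as *Cdkn2a* and *Cdkn2b* were, while the tested B cell markers were lower. Of 7 gamma delta T cell markers 4 were tested (*Trdc*, *Tcrg-C1*, *Tcrg-C2* and *Tcrg-C4*), and all 4 were higher in every *Scd-1*-/- than in every WT library, beside 7.67% of all genes, with the summed level of the list at 102 to 141 FPKM in WT and 197 to 441 FPKM in *Scd-1*-/- Teff. *Trdc*, the constant gene of the delta chain, passed the study's thresholds (log2 fold change 2.86, edgeR adjusted p 0.0629, or 0.00985 with the block), and the other 3 did so with the replicate block, where 1.19% of all genes passed them in that direction. With the block all 4 had an adjusted p under 0.05, against 4.7% of all genes in either direction. Of the remaining 3, *Il23r* had no count and *Trdv4* and *Sox13* had at most 4 in a library. Of 7 NK cell markers 4 were tested, *Klrb1c* and *Klra9* only because their level in *Scd-1*-/- Teff lifted the mean over the minimum (0.748 and 0.624 FPKM in WT). The list's sum was 6.30 to 6.66 FPKM in WT and 16.2 to 29.7 FPKM in *Scd-1*-/- Teff. *Eomes* (log2 fold change 1.69, edgeR adjusted p 0.0359) and *Klre1* (2.18, adjusted p 0.0907, or 0.0130 with the block) passed the study's thresholds. *Klrb1c*, for the receptor NK1.1, had the largest difference of the 4 tested, with counts of 37, 55 and 65 in WT and 126, 645 and 602 in *Scd-1*-/- Teff (log2 fold change 3.09, adjusted p 0.121, and 2.88 with an adjusted p of 0.00591 with the block). Of the markers below the minimum, *Ncr1*, which defines NK cells, had counts of 0, 4 and 5 in WT and 0, 0 and 2 in *Scd-1*-/- Teff, *Klra8* had at most 1 count, and *Klra4* had 2, 0 and 2 counts in *Scd-1*-/- Teff and 0 in WT. *Eomes* and killer cell receptor genes are also expressed by activated CD8+ T cells. The cells had been taken through a CD8 T cell isolation kit, which is meant to remove other lymphocytes and myeloid cells. The part of gamma delta T cells and NK cells in the levels of *Cdkn2a* and *Cdkn2b* was not tested, and in bulk RNA more cells of a type and more RNA per cell cannot be told apart.

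The marker lists of other cell types are given in turn. Of 7 B cell markers *Ms4a1* and *Pax5* had no count, and the list's sum, nearly all of it *Ighm*, was 146 to 269 FPKM in WT and 97.6 to 146 FPKM in *Scd-1*-/- Teff. *Ighm* and *Cd79b* were lower in *Scd-1*-/- Teff with the replicate block (log2 fold changes of -0.73 and -1.13). Of 11 myeloid markers *Adgre1*, *Fcgr1*, *S100a9* and *Mpo* had no count, and the sum was 8.27 to 17.3 FPKM in WT and 10.2 to 29.0 FPKM in *Scd-1*-/- Teff, mostly *Cd68*. *Cd14*, below the expression minimum, had counts of 11, 5 and 4 in WT and 28, 42 and 40 in *Scd-1*-/- Teff without overlap, and passed the study's thresholds in the fit to all genes with a count (log2 fold change 2.41, edgeR adjusted p 0.0956, and 0.0287 with the block). *Itgam*, also below it, had counts of 16, 0 and 5 in WT and 83, 13 and 16 in *Scd-1*-/- Teff (log2 fold change 2.35, adjusted p 0.524, and 0.0464 with the block). The part of B cells and myeloid cells in the levels of *Cdkn2a* and *Cdkn2b* was not tested. The sum of the 4 CD4 T cell markers was 6.15 to 12.2 FPKM in WT and 8.01 to 11.2 FPKM in *Scd-1*-/- Teff, nearly all of it *Zbtb7b*. *Cd4* itself had counts of 8, 24 and 12 in WT and 5, 2 and 1 in *Scd-1*-/- Teff (log2 fold change -2.49, adjusted p 0.344). The 10 stromal and erythroid markers summed to 7.42 to 8.27 FPKM in WT and 4.31 to 5.49 FPKM in *Scd-1*-/- Teff, nearly all of it *Pecam1*, which was lower with the block (-0.71), and *Col3a1*, *Cdh5* and *Hbb-bs* had no count.

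The genes whose profile over the 6 libraries lay nearest to that of *Cdkn2a* (smallest root mean square difference of log2(FPKM + 1) after centring each gene) were *Prf1*, the gene for perforin, at 0.370, *Trdc* at 0.387 and *Klrg1*, an inhibitory receptor of effector T cells, at 0.397. *Prf1* had 44.9, 23.8 and 30.6 FPKM in WT and 143, 173 and 172 FPKM in *Scd-1*-/- Teff, so WT replicate 1 was the highest and *Scd-1*-/- replicate 1 the lowest of its group, as for *Cdkn2a*. *Cdkn2b* stood in place 6 among the 9626 other genes at 0.484. Nearest to *Cdkn2b* were *Anxa1*, the gene for annexin A1, at 0.106, *Trdc* at 0.199 and *Clnk*, a signalling adaptor, at 0.218, with *Cdkn2a* in place 41. *Klrg1* and *Clnk* averaged under 1 FPKM in WT and passed the minimum only through their level in *Scd-1*-/- Teff. The likeness was measured over only 6 libraries that also fall into 2 genotypes. Adding 1 to the FPKM shrinks differences at low levels, so the distance depends on level as well. The log2 fold change of *Cdkn2b*, for example, was 1.99 in limma on log2(FPKM + 1) and 2.51 on log2(FPKM + 0.1).

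The chromatin and transcription genes known to act on the *Cdkn2a* and *Cdkn2b* locus were listed next, since Polycomb proteins silence it, and *Cdkn2b* also answers to TGF-beta through SMAD proteins. Of 26 such regulators 21 were tested, 12 with a log2 fold change above 0 and 9 below, and none passed the study's thresholds without the block. *Id2*, an inhibitor of helix-loop-helix transcription factors, was the most abundant, with 103, 104 and 124 FPKM in WT and 154, 312 and 310 FPKM in *Scd-1*-/- Teff. It differed by 1.25 on the log2 scale (adjusted p 0.146 in edgeR), and by 1.19 with the replicate block (adjusted p 0.0171). With the block *Ets1*, an activator of the Ink4a promoter, and *Cbx7*, a Polycomb subunit, were lower in *Scd-1*-/- Teff, by log2 fold changes of -0.57 (adjusted p 0.0296) and -0.65 (adjusted p 0.0455). *Eed*, a Polycomb gene and the next most abundant of the list, had a log2 fold change of 0.32 and passed no threshold. Of the 9 tested of 10 TGF-beta and SMAD genes 4 were above 0 and 5 below, and *Smad3*, the signal-transducing SMAD, was lower with the block (log2 fold change -0.62, adjusted p 0.0296), while *Tgfb1* and *Tgfbr2* had log2 fold changes of 0.01 and 0.17. The genes beside the locus had log2 fold changes of 0.12 for *Mtap* and 0.03 for *Mllt3*, neither of them called, and there was no count for *Dmrta1*, *Ifne* and *Elavl2*.

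*Cdkn2c*, for p18Ink4c, lies at chr4:109660876-109667189 on the same chromosome but far from that locus. It had counts of 666, 647 and 663 in WT and 728, 814 and 969 in *Scd-1*-/- Teff, or 15.5, 16.3 and 16.5 FPKM and 16.5, 20.4 and 21.6 FPKM. The groups did not overlap, although *Scd-1*-/- replicate 1 was above WT replicate 3 by only a small margin. The log2 fold change was 0.30, with a 95% interval from -0.06 to 0.66 and an adjusted edgeR p of 0.572. With the block it was 0.29, with an interval from 0.007 to 0.577, an unadjusted p of 0.0457 and an adjusted p of 0.213. Ratios of same-numbered libraries were 1.06, 1.25 and 1.31. The nearest profiles were those of *Mrps14*, a mitochondrial ribosomal protein gene, *Ppp2cb*, a catalytic subunit of protein phosphatase 2A, and *Spryd4*, at 0.0268, 0.0282 and 0.0406.

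*Cdkn2d*, for p19Ink4d, lies at chr9:21288410-21291407 and had the most mRNA of the INK4 genes in every library. Its counts were 2164, 1360 and 1183 in WT and 2032, 1283 and 1489 in *Scd-1*-/- Teff, or 112, 76.2 and 65.4 FPKM and 103, 71.6 and 73.8 FPKM. Replicate 1 of each genotype was the high library, at 1.58 times the mean of the other 2 in WT and 1.41 times in *Scd-1*-/- Teff, so that its spread followed the replicate number. The log2 fold change was -0.02, with a 95% interval from -0.59 to 0.56 without the block, and 0.01, with an interval from -0.26 to 0.27, with it. The nearest profiles were *Prkcz* at 0.0276, *Ropn1l* at 0.0352 and *Ctsl* at 0.0440, all of them also highest in replicate 1 of each genotype.

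*Cdkn1a*, for p21, lies at chr17:29090976-29100727 on the plus strand. A gene on the opposite strand overlaps it in GENCODE, and it is not stated whether reads were counted by strand. *Cdkn1a* had counts of 1630, 3008 and 2507 in WT and 2714, 4429 and 4922 in *Scd-1*-/- Teff, or 35.0, 69.7 and 57.3 FPKM and 56.7, 102 and 101 FPKM. The groups overlapped, because *Scd-1*-/- replicate 1 was below WT replicates 2 and 3, but in each same-numbered pair the *Scd-1*-/- library was higher, by ratios of 1.62, 1.46 and 1.76. Replicate 1 was at 0.550 of the mean of the other 2 libraries in WT and at 0.559 in *Scd-1*-/- Teff, a shared deviation that the block removes. Without the block the log2 fold change was 0.71 ± 0.30 (SE), or 1.63-fold, with an unadjusted edgeR p of 0.0471 and an adjusted p of 0.485. With the block it was 0.71 ± 0.10 (SE), with a 95% interval from 0.48 to 0.94 and an adjusted p of 0.0112, which is a call at an adjusted p under 0.05 but below the fold threshold of the study. Over its 20 alternatives the log2 fold change stayed between 0.48 and 0.94 and the adjusted p ran from 2.97e-06 to 0.997. The nearest profiles to *Cdkn1a* were *Plk2*, a kinase gene and p53 target, at 0.121, *Lfng*, a Notch-modifying enzyme, at 0.128, and *0610009B22Rik* at 0.164.

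Since p21 is a p53 target, 25 genes of p53 and its targets were set beside it. Of the 22 tested 16 had a log2 fold change above 0 and 6 below, with a median of 0.33, and without the block none was called by either rule. With the block 3 of the 22 were called at an adjusted p under 0.05, all higher in *Scd-1*-/- Teff, beside 4.7% of all genes called in either direction. They were *Pmaip1*, for the apoptotic protein NOXA (log2 fold change 0.92, adjusted p 0.0296), *Sesn2*, for a stress sensor that restrains mTORC1 (0.87, adjusted p 0.0259), and *Aen*, for an apoptosis-enhancing nuclease (0.69, adjusted p 0.0426). The most abundant genes of the list were *Bax*, *Ddit4* and *Ccng1*, with log2 fold changes of 0.07, -0.59 and 0.77 that passed neither rule with or without the block.

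*Cdkn1b*, for p27, lies at chr6:134920401-134925513 and had counts of 434, 606 and 617 in WT and 414, 559 and 607 in *Scd-1*-/- Teff, or 3.77, 5.70 and 5.72 FPKM and 3.51, 5.23 and 5.05 FPKM. The groups overlapped, and replicate 1 was the low library in both, at 0.661 and 0.683 of the mean of the other 2. Each *Scd-1*-/- library was slightly below the WT library of its number, by ratios of 0.929, 0.918 and 0.882, but the log2 fold change of -0.11 had a 95% interval from -0.64 to 0.41, or from -0.39 to 0.16 with the block, and an adjusted edgeR p of 0.925, or 0.612 with the block. The nearest profiles were *Exosc2*, *Slc43a3* and *Sac3d1*, at 0.0286, 0.0322 and 0.0326. Of 10 genes that control p27, including its ubiquitin ligase and the FOXO factors that raise its transcription, 9 were tested, 3 above 0 and 6 below, and none passed a threshold with or without the block. The most abundant of these, *Cks1b*, *Akt1* and *Skp1a*, had log2 fold changes of -0.06, -0.01 and -0.31.

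*Cdkn1c*, for p57, an imprinted gene at chr7:143458339-143461050, was close to the limit of the depth, with counts of 8, 0 and 4 in WT and 5, 6 and 3 in *Scd-1*-/- Teff. No difference was detectable at this depth, and a fitted fold change from such counts depends on the setting and even changed sign between settings. An antisense gene overlaps *Cdkn1c* in GENCODE as well. Among the 11 imprinted and other genes beside it on chromosome 7 only 4 were tested, all with a log2 fold change below 0. *Cd81*, for a tetraspanin, passed the study's thresholds and was lower in *Scd-1*-/- Teff (log2 fold change -1.77, edgeR adjusted p 0.0988, and -1.73 with an adjusted p of 0.00329 with the block). *Tspan32* was lower with the block (-0.85, adjusted p 0.0162), and *Nap1l4*, the most abundant, had a log2 fold change of -0.03.

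The make-up of CDK inhibitor mRNA differed between the genotypes, as the stacked plot shows. The summed level of the 7 genes was 178, 171 and 150 FPKM in WT and 209, 253 and 256 FPKM in *Scd-1*-/- Teff, so all *Scd-1*-/- libraries were above all WT libraries. *Cdkn2a* made up 5.03, 1.42 and 2.20% of the sum in WT and 11.5, 17.2 and 16.3% in *Scd-1*-/- Teff. All values of *Cdkn2a* here include any Arf transcript, which encodes no CDK inhibitor. *Cdkn2d* made up 63.1, 44.5 and 43.6% in WT and 49.0, 28.3 and 28.9% in *Scd-1*-/- Teff, and within each replicate number its share was the lower one in *Scd-1*-/- Teff. The INK4 genes together had 139, 95.9 and 86.8 FPKM in WT and 149, 146 and 150 FPKM in *Scd-1*-/- Teff, of which *Cdkn2a* and *Cdkn2b* held 8.14, 3.50 and 5.60% in WT and 20.02, 36.8 and 36.3% in *Scd-1*-/- Teff. An exact two-sided permutation test of any of these values cannot give a p under 0.1 with 3 libraries against 3.

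**Figure D5:**
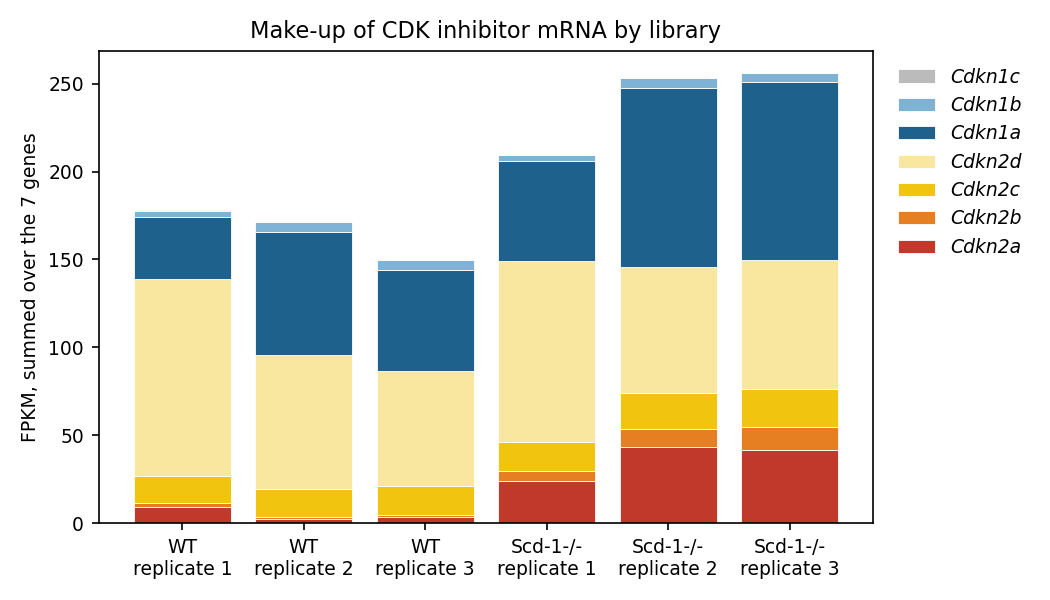
FPKM summed over the 7 CDK inhibitor genes (vertical axis, from 0) in each of the 6 Teff libraries, with the coloured segments giving each gene. The 3 Scd-1-/- libraries reach 209 to 256 FPKM against 150 to 178 FPKM in WT, with larger Cdkn2a and Cdkn2b segments at the base.

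The kinases that the INK4 proteins bind, CDK4 and CDK6, were not called. *Cdk4* had 47.8, 73.1 and 73.4 FPKM in WT and 47.0, 60.4 and 60.9 FPKM in *Scd-1*-/- Teff (log2 fold change -0.18, adjusted p 0.830 in edgeR). *Cdk6* had 6.61, 6.85 and 8.92 FPKM in WT and 7.82, 10.4 and 10.9 FPKM in *Scd-1*-/- Teff (0.40, adjusted p 0.497, or 0.0787 with the block). None of the 4 tested genes of the CDK4, CDK6 and D-type cyclin list passed a threshold in either fit, and *Ccnd1* had at most 7 counts. For each FPKM of *Cdk4* and *Cdk6* together, WT Teff had 0.208, 0.0419 and 0.0591 FPKM of *Cdkn2a* and *Cdkn2b* together. *Scd-1*-/- Teff had 0.544, 0.757 and 0.759 FPKM. The difference restates that of *Cdkn2a* and *Cdkn2b* themselves, and the *Cdkn2a* level includes any Arf transcript. These are ratios of mRNA levels, and protein levels were not analysed here.

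Genes further along the same pathway showed small differences. Of the 11 genes of CDK2, CDK1 and their cyclins and phosphatases, all were tested, 4 were above 0 and 7 below. With the block 1 was called, against 4.7% of all genes. It was *Cdc25b*, a phosphatase that activates CDKs, which was lower in *Scd-1*-/- Teff (log2 fold change -0.47, adjusted p 0.0369). Of 13 genes of the RB family and E2F 12 were tested, 6 on either side of 0, and none was called in either fit, with log2 fold changes of 0.01 for *E2f4*, -0.16 for *Tfdp1* and -0.25 for *E2f2*, the most abundant of them. Of 26 genes of replication and mitosis, all tested, 7 were above 0 and 19 below, with a median log2 fold change of -0.15. In that list 1 gene was called with the block, where 4.7% of all genes were called in either direction. It was *Cdc20*, the activator of the anaphase-promoting complex, lower in *Scd-1*-/- Teff (log2 fold change -0.52, adjusted p 0.0271, against -0.53 and 0.375 without the block). *Mcm5*, a subunit of the replicative helicase and the most abundant of the list, had 221, 311 and 264 FPKM in WT and 176, 216 and 196 FPKM in *Scd-1*-/- Teff, with an adjusted p of 0.407, or 0.0529 with the block. *Mki67*, for the proliferation marker Ki-67, lay on the other side of 0 (log2 fold change 0.44, adjusted p 0.468, or 0.0510 with the block), and is named after its values were seen. The 3 genes with similar names that belong to neither inhibitor family, *Cdkn3*, *Cdkn2aip* and *Cdkn2aipnl*, had log2 fold changes of -0.01, 0.03 and 0.08.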

How the data were processed

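RNA-seq libraries of cultured CD8+ Teff, 3 WT and 3 *Scd-1*-/-, were grouped by their labels. Per the labels and the study's methods, reads were aligned with HISAT2 to GRCm38 and counted per gene with StringTie 1.3.0. The labels name poly(A) RNA, Trizol extraction and a VAHTS Universal V6 kit, whereas the methods name an RNeasy kit and strand-specific libraries made with a TruSeq Stranded Total RNA kit. How reads that match several genes were treated, and whether the counting used strand, is not given in the sources used here. The authors deposited counts per gene, whole numbers without normalization, and FPKM values. The deposited FPKM equal counts scaled by gene length and by the library total, with no TMM factor, and the gene length implied by them differed between libraries by at most 0.0045%.

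Counts were tested with edgeR 4.0.16 (quasi-likelihood test, TMM factors, R 4.3.3) on the 9627 genes that averaged 1 FPKM or more, with p-values adjusted over all of them by the Benjamini-Hochberg method. Values of genes below that minimum came from a second fit, which held the 17192 genes that had any count. The thresholds were those of the study (1 or more on the log2 fold scale in either direction, p under 0.001) and an adjusted p under 0.05. The members and the gene lists were chosen with earlier results of these data known, and the lists were written by hand. Named genes were the 7 members, the called and the 3 most abundant genes of each list, markers, *Scd1*, and the 3 nearest profiles of each member. *Plk2* was in both the p53 list and the nearest profiles, and marker genes at or near 0 were named as well. A few genes of these lists are not reported here. The replicate number was used as a block. Deviations of same-numbered libraries from their group means had correlations of 0.595, 0.306 and 0.470, all over 0.1. *Scd-1*-/- replicate 2 correlated more with WT replicate 3 (0.380) than with WT replicate 2, so a pairing by number was not established. Totals per library were 14034479 to 15866216 counts, and floors of 3 counts cover counting error only. DESeq2 1.42.0, limma 3.58.1 on log2(FPKM + 1) and log2(FPKM + 0.1), other scalings and minimums, the replicate block and omitted libraries were alternatives. The scripts were tested on simulated data. Of 34745 identifiers 98.6% matched GENCODE M21 (GRCm38), from which positions and transcripts came. Promoter sequences came from RefSeq, with entries for 6 of the 7 members.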

Additional observations from a re-analysis of the deposited data

How the results depend on the processing

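Each result was computed under 20 alternatives, of which 15 were planned and 5, all with the replicate block, were added after seeing the data. The count of CDK inhibitors past the study's thresholds was 2, and 0 to 2 when 1 library or 1 pair of libraries was left out. It was 1 with the replicate block without replicate 2, where *Cdkn2b* had a log2 fold change of 2.16 and p of 0.00103. The count with an adjusted p under 0.05 was 0, and it was 2 with no FPKM minimum and with DESeq2. It was 3 with the replicate block, in replicates 2 and 3 only, and with the block in DESeq2 and in limma on log2(FPKM + 1). It was 0 to 3 with libraries left out. Without 1 library, the log2 fold changes ran from 2.58 to 3.70 for *Cdkn2a* and from 2.29 to 2.97 for *Cdkn2b*, and without a pair, with the block, as far as 2.50 to 3.93 and 2.16 to 3.25. Without 1 library they ran from 0.22 to 0.40 for *Cdkn2c*, -0.21 to 0.26 for *Cdkn2d*, 0.48 to 0.94 for *Cdkn1a*, -0.28 to 0.045 for *Cdkn1b* and -0.35 to 1.13 for *Cdkn1c*, which was at -0.61 with the block without replicate 2. The cause of these changes was not tested. The share of all genes called moved too. At the study's thresholds it was 0.738% in the main fit, 0.26 to 1.69% without 1 library, and 1.22 to 3.61% with the block without a pair. In the settings where no CDK inhibitor passed these thresholds it was 0.26 to 0.322%. At an adjusted p under 0.05 it was 0.489% with no FPKM minimum, 2.77% with DESeq2, 4.7% with the block, 7.62% and 4.58% with the block in DESeq2 and limma, 12.6% in replicates 2 and 3 only, 0.0208 to 1.89% without 1 library, and 1.24 to 15.2% with the block without a pair. *Cdkn2d* changed sign from -0.016 to 0.0072 with the block, 0.0029 with the block in DESeq2, 0.072 in replicates 2 and 3 only, and 0.078 and 0.051 with the block without replicate 1 and without replicate 2. *Cdkn2a*, *Cdkn2b*, *Cdkn2c* and *Cdkn1a* kept their direction in all 20 alternatives. At a mean FPKM of at least 5 *Cdkn1b* and *Cdkn1c* gave no value. *Cdkn2a* and *Cdkn2b*, at 4.90 and 1.62 FPKM in WT, passed that minimum only through their level in *Scd-1*-/- Teff. By the study's thresholds and the adjusted p, the replicate block changed no call of a CDK inhibitor other than the adjusted p of *Cdkn2a*, *Cdkn2b* and *Cdkn1a*. The unadjusted edgeR p of *Cdkn2c* moved from 0.0881 without the block to 0.0457 with it. At this depth *Cdkn1c* is too low to compare.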
